A study of Rattus norvegicus with 15 samples.

Results

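Chemokines and NF-kappaB feedback genes were followed in cultured rat aortic smooth muscle cells (SMC) as a set of 10 genes. The genes Ccl2, Ccl7, Cxcl1, Cxcl12, Il6, Nfkbia, Tnfaip3, Nfkb1, Relb and Il1rl1 were taken by symbol from the deposited expression table, where each matched 1 of 32623 gene entries. RNA-seq of polyA RNA was used in that study to assess the effects of H3K4me2 editing, and H3K4me2 is a histone mark of active regulatory regions. The 15 libraries fell into 4 groups, all from aortic SMC kept in serum-free and insulin-free medium for 72 h before harvest. The control group held 4 libraries of the untreated SMC line labelled WT. The Myocd-LSD1 group held 4 libraries of an untreated line with a fusion of myocardin, a coactivator of contractile genes, and LSD1, the histone demethylase encoded by Kdm1a. The Myocd-LSD1NF group held 4 libraries of a further untreated line. The labels and the series' design text do not spell out NF. The PDGF-BB group held 3 libraries of SMC that were starved for 48 h and then given 30 ng/ml of human recombinant PDGF-BB, a mitogen for SMC, for 24 h in the same medium. The labels do not say whether libraries of 1 group came from separate cultures, so the p-values cover the spread among these libraries alone, and that spread may be technical. Nor do the labels say whether each line is 1 clone, and in these data the fusion protein's effect and anything else that sets a line apart from control SMC cannot be told apart.

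As background, NF-kappaB is a family of dimeric transcription factors that is held in the cytoplasm by inhibitor proteins until cytokine or pathogen receptors activate the kinases that mark those inhibitors for destruction. Freed NF-kappaB induces chemokines and cytokines, and it also induces its own brakes, among them the inhibitor IkappaB-alpha (Nfkbia) and the ubiquitin-editing enzyme A20 (Tnfaip3), which end the response. In the vessel wall SMC are a source of CCL2 and IL-6, which recruit and activate leukocytes and take part in atherosclerosis and in the response to injury.

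The promoters of Nfkbia, Tnfaip3, Il6 and Cxcl1 are shown because these members took the same order among the control libraries and each holds a kappaB motif close to its start site. Il1rl1 took that order too, without a motif in the promoter matched for it. Nfkb1 holds a motif, but its control libraries took another order, from high to low 2, 4, 3 and 1. The promoters shown were picked on both traits, so finding the traits together in them is not a result. RefSeq promoters of GRCr8, which run from 250 bases before to 50 bases after a start site, were matched for 8 of the 10 members, and Ccl2 and Relb had no entry. The capitals mark matches to the kappaB consensus motif on either strand. The windows are chr6:78597023-78597322 (minus strand) for Nfkbia, chr1:15543930-15544229 (minus strand) for Tnfaip3, chr4:5894526-5894825 (minus strand) for Il6 and chr14:17479272-17479571 (minus strand) for Cxcl1.
Nfkbia: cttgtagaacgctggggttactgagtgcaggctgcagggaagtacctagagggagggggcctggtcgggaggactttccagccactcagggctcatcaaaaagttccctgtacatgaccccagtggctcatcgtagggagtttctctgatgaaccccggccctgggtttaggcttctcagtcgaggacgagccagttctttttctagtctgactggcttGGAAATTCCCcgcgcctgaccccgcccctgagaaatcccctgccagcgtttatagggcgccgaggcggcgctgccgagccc
Tnfaip3: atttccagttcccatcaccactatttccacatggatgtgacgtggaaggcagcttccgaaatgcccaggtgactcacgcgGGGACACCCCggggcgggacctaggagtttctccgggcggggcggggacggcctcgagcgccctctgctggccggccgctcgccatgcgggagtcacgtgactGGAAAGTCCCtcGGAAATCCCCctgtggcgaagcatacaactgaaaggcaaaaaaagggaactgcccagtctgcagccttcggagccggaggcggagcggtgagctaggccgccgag
Il6: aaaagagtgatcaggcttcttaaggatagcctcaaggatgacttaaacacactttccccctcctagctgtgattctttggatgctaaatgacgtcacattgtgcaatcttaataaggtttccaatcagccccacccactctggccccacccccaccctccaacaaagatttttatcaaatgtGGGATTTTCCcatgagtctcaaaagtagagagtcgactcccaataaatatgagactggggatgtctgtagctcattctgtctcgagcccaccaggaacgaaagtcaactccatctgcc
Cxcl1: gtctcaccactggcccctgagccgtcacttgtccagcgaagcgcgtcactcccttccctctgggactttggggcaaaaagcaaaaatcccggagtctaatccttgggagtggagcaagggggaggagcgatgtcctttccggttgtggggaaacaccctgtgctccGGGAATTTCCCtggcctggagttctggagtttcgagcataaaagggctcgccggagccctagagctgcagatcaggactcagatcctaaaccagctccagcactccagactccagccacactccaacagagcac
A match was found in 5 of the 8 promoters, those of Cxcl1, Il6, Nfkbia, Tnfaip3 and Nfkb1, against 4.18% of all 33469 promoters of this length and 4.94% of the 8809 promoters of tested genes. The members were picked around NF-kappaB, so this contrast was built into the set and is given as a description. In Nfkbia the match covers positions -31 to -22 from the start site, in Il6 -68 to -59, and in Cxcl1 2 overlapping matches on opposite strands cover -84 to -74. Tnfaip3 has 3 matches, which begin at -170, -67 and -55. The Nfkb1 match lies just past the start site, at 3 to 12. The Ccl7, Cxcl12 and Il1rl1 windows hold no match. The start site used lies 235 bases inside the annotated gene for Nfkbia, 14 for Tnfaip3, 435 for Nfkb1 and 46312 for Il1rl1, so for Il1rl1 it belongs to a start far inside the gene. A match is a stretch of letters and does not show that a factor bound there.

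Expression was given by the authors as TPM, a transcript abundance that is corrected for gene length and brought to the same sum in every library. TPM hold no record of sequencing depth. In each library 11306 to 11702 genes reached 1 TPM. Contractile SMC markers (6 of 6 matched) were present in all groups, with summed levels of 17571 to 21913 TPM in control, 5323 to 7148 in PDGF-BB, 3438 to 6102 in Myocd-LSD1 and 9513 to 20466 in Myocd-LSD1NF libraries. In Myocd-LSD1NF libraries Cnn1 was at 566 to 927 TPM, below the 1109 to 1543 of control, and the other SMC markers overlapped control. Acta2 was at 3979 TPM in Myocd-LSD1NF library 4 and at 10729 to 11982 in the others of that line. Rat Myocd averaged 27.8 ± 1.96 TPM in control, 19.7 ± 4.33 in PDGF-BB, 0.310 ± 0.186 in Myocd-LSD1 and 34.6 ± 13.7 in Myocd-LSD1NF libraries (SD, n = 4, 3, 4 and 4), and the sources used here do not say whether fusion transcripts count towards it. Kdm1a averaged 54.1 to 70.6 TPM in the 4 groups. Of 14 leukocyte markers 13 were matched, and 12, 12, 11 and 12 of them averaged below 1 TPM in control, PDGF-BB, Myocd-LSD1 and Myocd-LSD1NF libraries. Ptprc, the pan-leukocyte antigen CD45, was listed at 0 in every library of control and of both lines. Cd68 was at 0.14 to 0.64 TPM in control, 0.80 to 0.93 in PDGF-BB, 1.17 to 1.62 in Myocd-LSD1 and 0.17 to 0.49 in Myocd-LSD1NF libraries. Apart from Cd68 and Cd14, the matched leukocyte markers reached at most 0.33 TPM. Nearly all of the leukocyte sum was Cd14, which also has roles outside leukocytes, and the sum ran from 39.2 to 49.8 TPM in control, 75.2 to 133 in PDGF-BB, 108 to 228 in Myocd-LSD1 and 55.7 to 137 in Myocd-LSD1NF libraries. Summed endothelial markers (7 of 8 matched) were at 3.46 to 6.88 TPM in control, 1.13 to 2.28 in PDGF-BB, 0.68 to 1.49 in Myocd-LSD1 and 1.14 to 5.44 in Myocd-LSD1NF libraries. Summed fibroblast markers (6 of 6 matched) were at 15.4 to 35.7 TPM in control and 25.9 to 56.7 in PDGF-BB libraries. The sum was at 6.61 to 15.1 TPM in Myocd-LSD1 and 5.23 to 8.99 in Myocd-LSD1NF libraries, so both lines lay below control. Of these markers Cd34 was listed at 0 in every library. Most of the control sum was Lum. Lum was at 8.37 to 31.3 TPM in control, 0.1 to 2.01 in Myocd-LSD1 and 0.95 to 3.4 in Myocd-LSD1NF libraries. The Myocd-LSD1 means of Pdgfra, Dpt, Dcn and Pi16 were above those of control. In Myocd-LSD1NF libraries the means of Pdgfra, Dcn and Pi16 were below control and that of Dpt was above. In bulk RNA, fewer cells of a type and less RNA per cell cannot be told apart. Cd14 thus lay above control in PDGF-BB libraries and in both lines, at 55.3 to 137 TPM in Myocd-LSD1NF against 38.7 to 49.4 in control libraries. Each SMC marker and Erg, and with it the endothelial sum, lay below control in the Myocd-LSD1 and PDGF-BB groups. Cnn1 lay below control in Myocd-LSD1NF too, and the fibroblast sum did so in both lines. The part of all these markers in the results was not tested.

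All 10 members passed the filter on low values (at least 1 TPM in at least 3 libraries), so none was unexpressed in the series as a whole. The exception within a group was Il1rl1, which stayed below 1 TPM in all 4 Myocd-LSD1 libraries. In control SMC the mean levels, which TPM allow to be compared between genes, ran from 295 TPM for Cxcl12 and 180.3 TPM for Ccl7 through 114 TPM for Nfkbia and 109 TPM for Cxcl1 to 33.6 TPM for Nfkb1, 29.7 TPM for Tnfaip3, 26.5 TPM for Ccl2, 12.7 TPM for Il6, 9.03 TPM for Relb and 2.94 TPM for Il1rl1. All 6 pairs of groups were compared for every gene with limma on log2(TPM + 1), and a gene was called at a Benjamini-Hochberg adjusted p under 0.05 over the 12207 genes tested. A fold change on this scale understates the change of low genes. The comparisons share libraries, 3 of them the same controls, so their results are not independent.

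**Figure D1:**
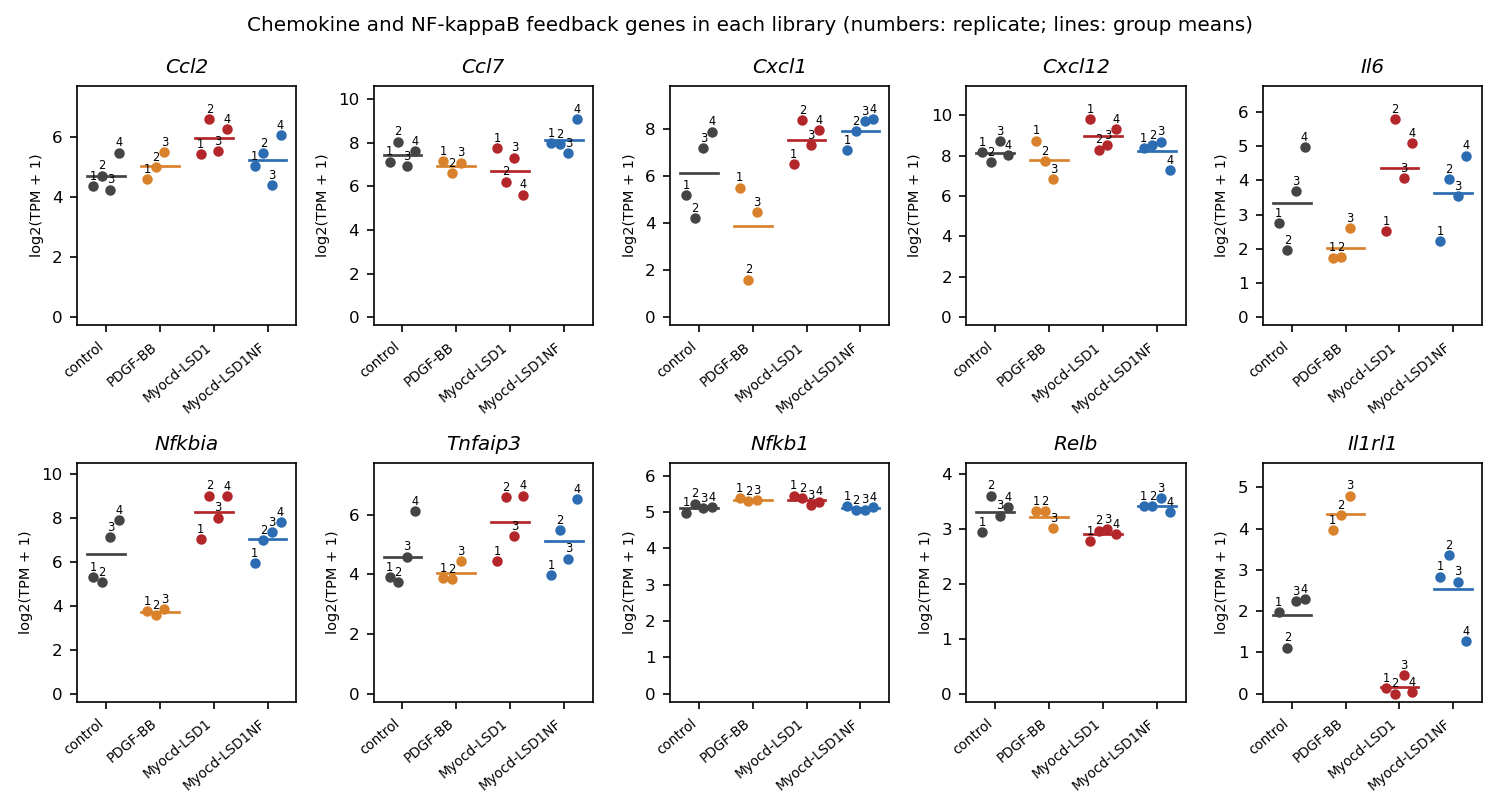
Level of each of the 10 genes in the 15 libraries, as log2(TPM + 1) on a vertical axis that starts at about 0, with points numbered by replicate and a line at each group's mean. The 3 PDGF-BB libraries lie at 11.1 to 13.5 TPM of Nfkbia, below every other library, and the 4 Myocd-LSD1 libraries lie at 0 to 0.36 TPM of Il1rl1.

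Nfkbia encodes IkappaB-alpha, the inhibitor that retains NF-kappaB in the cytoplasm and is resynthesized after activation. It was the member with the widest separation between groups in this feedback pair, low in PDGF-BB and high in Myocd-LSD1 libraries. Control libraries 1 to 4 had 39.3, 33.4, 139 and 243 TPM, with a mean of 114 ± 98.8 (SD, n = 4). PDGF-BB libraries 1 to 3 had 12.6, 11.1 and 13.5 TPM, with a mean of 12.4 ± 1.20 (SD, n = 3). Every PDGF-BB library lay below every control library, and the PDGF-BB libraries differed little among themselves. In Myocd-LSD1 libraries 1 to 4 Nfkbia stood at 131, 525, 260.2 and 513 TPM (357 ± 194, SD, n = 4), and in Myocd-LSD1NF libraries 1 to 4 at 60.5, 128, 164 and 227 TPM (145 ± 69.4, SD, n = 4). The 2 lines overlapped with the control group and with each other, because control libraries 3 and 4 were as high as the lower libraries of the lines. Against control, Nfkbia fell by 2.64 ± 0.64 (SE) on the log2 scale with PDGF-BB (adjusted p = 0.00765) and rose by 1.90 ± 0.60 in Myocd-LSD1 (adjusted p = 0.0234). The Myocd-LSD1 level was 4.54 ± 0.64 log2 units above that with PDGF-BB (adjusted p = 0.000123), and the PDGF-BB level was below that of Myocd-LSD1NF by a log2 difference of -3.30 ± 0.64 (adjusted p = 0.00198). Myocd-LSD1 and Myocd-LSD1NF differed by 1.24 ± 0.60 (adjusted p = 0.127). The rise in Myocd-LSD1 over control lost its call without control library 1 (adjusted p = 0.0797), control library 2 (0.0818), Myocd-LSD1 library 2 (0.0727) or Myocd-LSD1 library 4 (0.0686), and in a fit of those 2 groups alone (0.0545). The 3 differences from PDGF-BB were called whichever library was left out.

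Tnfaip3 encodes A20, which removes activating ubiquitin chains from signalling proteins upstream of NF-kappaB. No comparison of Tnfaip3 passed the test in the fit used, which has no replicate block. With the replicate number as a block, Tnfaip3 was called higher in Myocd-LSD1 than in control and than with PDGF-BB. Control libraries 1 to 4 had 14.1, 12.3, 23.2 and 69.3 TPM, and PDGF-BB libraries 1 to 3 had 13.7, 13.5 and 20.99 TPM. Myocd-LSD1 libraries 1 to 4 had 20.9, 95.0, 38.2 and 99.4 TPM, and Myocd-LSD1NF libraries 1 to 4 had 14.9, 43.7, 22.2 and 90.8 TPM. All 4 groups overlapped, and the lowest library of control and of each line lay below PDGF-BB library 3. The means were 29.7 ± 26.8 in control, 16.1 ± 4.28 in PDGF-BB, 63.4 ± 39.7 in Myocd-LSD1 and 42.9 ± 34.2 TPM in Myocd-LSD1NF (SD, n = 4, 3, 4 and 4). The Myocd-LSD1 mean on the log2 scale was 1.15 ± 0.61 (SE) above control (adjusted p = 0.175) and 1.68 ± 0.66 above PDGF-BB (adjusted p = 0.0666). The first passed the test without control library 4 (adjusted p = 0.0426), and the second without control library 4 (0.0409), Myocd-LSD1 library 1 (0.0247) or Myocd-LSD1NF library 4 (0.0433) and in a fit of those 2 groups alone (0.0383).

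Nfkb1 and Relb encode DNA-binding subunits. Nfkb1 gives the precursor p105 and the subunit p50 of the classical dimer, and Relb is the subunit of the alternative pathway. Both varied far less between libraries than the other members. Nfkb1 stood at 30.6, 36.5, 33.4 and 33.9 TPM in control libraries 1 to 4, at 40.9, 38.5 and 39.1 in PDGF-BB libraries 1 to 3, at 42.7, 40.3, 35.2 and 37.9 in Myocd-LSD1 libraries 1 to 4, and at 34.9, 32.2, 32.4 and 33.8 in Myocd-LSD1NF libraries 1 to 4. The PDGF-BB libraries were all above the control and Myocd-LSD1NF libraries, and the Myocd-LSD1 libraries were all above the Myocd-LSD1NF libraries. None of these differences passed the test under the filter used: PDGF-BB lay 0.23 ± 0.09 log2 units above control (adjusted p = 0.0682) and Myocd-LSD1 0.21 ± 0.08 above control (adjusted p = 0.0654) and 0.22 ± 0.08 above Myocd-LSD1NF (adjusted p = 0.0548). The Myocd-LSD1 difference from control passed the test without control library 2 (adjusted p = 0.0499) or Myocd-LSD1 library 3 (0.0313), the latter omission also gave a call against Myocd-LSD1NF (0.0266), and the PDGF-BB difference from Myocd-LSD1NF passed without Myocd-LSD1 library 1 (0.0463) or 3 (0.0434). With no filter on low values all of these differences of Nfkb1 passed, with adjusted p-values of 0.0444 for Myocd-LSD1 and 0.0499 for PDGF-BB against control, and of 0.0384 for Myocd-LSD1 and 0.0394 for PDGF-BB against Myocd-LSD1NF.

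Relb was lower in the Myocd-LSD1 line. Control libraries 1 to 4 had 6.75, 11.3, 8.51 and 9.60 TPM (9.03 ± 1.89, SD, n = 4), and Myocd-LSD1 libraries 1 to 4 had 5.92, 6.87, 7.03 and 6.53 TPM (6.59 ± 0.491, SD, n = 4). PDGF-BB libraries 1 to 3 had 9.03, 9.09 and 7.12 TPM, and Myocd-LSD1NF libraries 1 to 4 had 9.72, 9.68, 10.8 and 8.92 TPM. The Myocd-LSD1 libraries lay below every PDGF-BB and every Myocd-LSD1NF library and overlapped the control group only through control library 1. Relb fell by 0.39 ± 0.14 (SE) on the log2 scale against control (adjusted p = 0.0458), and its difference from Myocd-LSD1NF was -0.51 ± 0.14 (adjusted p = 0.0121). The call against control was lost without control library 2 (adjusted p = 0.150), 3 (0.0703) or 4 (0.102), without Myocd-LSD1 library 1 (0.106), 2 (0.0714), 3 (0.0534) or 4 (0.0833), and also without PDGF-BB library 1 (0.0552) or 2 (0.0546) or Myocd-LSD1NF library 1 (0.0580) or 2 (0.0570). It was also lost with no filter on low values (adjusted p = 0.0640), when genes averaging under 5 TPM were left out (0.0505) and in a fit of those 2 groups alone (0.0966), whereas the call against Myocd-LSD1NF held whichever library was left out.

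Il6 encodes interleukin-6, the cytokine that signals through IL6R and gp130 to STAT3. In control libraries 1 to 4 Il6 was at 5.71, 2.91, 11.9 and 30.3 TPM, and PDGF-BB libraries 1 to 3 had 2.34, 2.38 and 5.08 TPM. Myocd-LSD1 libraries 1 to 4 had 4.70, 54.4, 15.7 and 33.2 TPM, and Myocd-LSD1NF libraries 1 to 4 had 3.68, 15.3, 10.6 and 25.4 TPM. PDGF-BB libraries 1 and 2 were the lowest of the series, and PDGF-BB library 3 lay above the lowest library of each other group. Il6 was 2.33 ± 0.77 (SE) log2 units higher in Myocd-LSD1 than with PDGF-BB (adjusted p = 0.0328). That call was lost without PDGF-BB library 1 (adjusted p = 0.0935) or 2 (0.0991), without Myocd-LSD1 library 2 (0.1005) or 4 (0.0841), and with no filter on low values (0.0546). Against control the log2 difference was 1.02 ± 0.72 in Myocd-LSD1 (adjusted p = 0.307) and -1.31 ± 0.77 with PDGF-BB (adjusted p = 0.224).

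Cxcl1 encodes a ligand of CXCR2 that attracts neutrophils. It was low with PDGF-BB and high in both lines. Control libraries 1 to 4 had 35.6, 17.6, 146 and 238 TPM (109 ± 103, SD, n = 4), and PDGF-BB libraries 1 to 3 had 44.7, 2.04 and 21.2 TPM (22.6 ± 21.4, SD, n = 3). Myocd-LSD1 libraries 1 to 4 had 90.7, 335, 158 and 250.8 TPM (209 ± 107, SD, n = 4), and Myocd-LSD1NF libraries 1 to 4 had 136, 239.8, 322 and 345 TPM (261 ± 94.5, SD, n = 4). Every library of both lines lay above every PDGF-BB library, while the control group overlapped the PDGF-BB group through libraries 1 and 2 and the lines through libraries 3 and 4. Cxcl1 was 3.69 ± 0.90 (SE) log2 units higher in Myocd-LSD1 than with PDGF-BB (adjusted p = 0.00587), and the difference of PDGF-BB from Myocd-LSD1NF was -4.08 ± 0.90 (adjusted p = 0.00417). Against control the log2 differences were -2.26 ± 0.90 with PDGF-BB (adjusted p = 0.0725), 1.42 ± 0.83 in Myocd-LSD1 (adjusted p = 0.216) and 1.82 ± 0.83 in Myocd-LSD1NF (adjusted p = 0.307). The PDGF-BB difference from control passed the test without control library 2 (adjusted p = 0.0278) or PDGF-BB library 1 (0.0298).

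Cxcl12 encodes the ligand of CXCR4 and of the scavenging receptor ACKR3, and unlike Cxcl1 it is a homeostatic chemokine. It was the most abundant member on average in all 4 groups, with means of 295 ± 93.8 TPM in control, 252 ± 160.0 with PDGF-BB, 555 ± 272 in Myocd-LSD1 and 319 ± 114 in Myocd-LSD1NF (SD, n = 4, 3, 4 and 4). In control libraries 1 to 4 it was at 291, 203, 425 and 260.3 TPM, and PDGF-BB libraries 1 to 3 had 428, 214 and 115 TPM. Myocd-LSD1 libraries 1 to 4 had 903, 315, 365 and 636 TPM, and Myocd-LSD1NF libraries 1 to 4 had 333, 369, 416 and 156 TPM. All groups overlapped and no comparison passed the test in the fit used, although Myocd-LSD1 against PDGF-BB was called with the replicate number as a block. The Myocd-LSD1 level was 0.83 ± 0.42 (SE) log2 units above control (adjusted p = 0.152) and 1.21 ± 0.45 above PDGF-BB (adjusted p = 0.0559), and the latter passed without PDGF-BB library 1 (adjusted p = 0.0148), Myocd-LSD1 library 2 (0.0387) or 3 (0.0455), or Myocd-LSD1NF library 4 (0.0365), and under median-of-ratios scaling (0.0419).

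Ccl2 and Ccl7 encode the monocyte chemoattractants MCP-1 and MCP-3, both ligands of CCR2, and lie side by side in the RefSeq gene order of rat chromosome 10. Ccl2 was higher in Myocd-LSD1 than in control libraries, and Ccl7 was lower there than in Myocd-LSD1NF. Ccl2 stood at 19.6, 25.2, 17.9 and 43.4 TPM in control libraries 1 to 4, at 23.2, 30.8 and 43.9 in PDGF-BB libraries 1 to 3, at 41.9, 95.6, 45.1 and 75.1 in Myocd-LSD1 libraries 1 to 4 and at 31.6, 43.1, 20.1 and 65.8 in Myocd-LSD1NF libraries 1 to 4. Of the Myocd-LSD1 libraries, 3 lay above every control library and library 1 lay just below control library 4. Ccl2 rose by 1.25 ± 0.36 (SE) on the log2 scale in Myocd-LSD1 over control (adjusted p = 0.0158), and this call was lost without control library 3 (adjusted p = 0.0517) or Myocd-LSD1 library 2 (0.0561). Its differences from control were 0.54 ± 0.36 in Myocd-LSD1NF (adjusted p = 0.516) and 0.33 ± 0.39 with PDGF-BB (adjusted p = 0.573), and its difference between the 2 lines passed without Myocd-LSD1NF library 4 (adjusted p = 0.0448).

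Ccl7 stood at 140.3, 265, 122 and 193 TPM in control libraries 1 to 4 and at 142, 95.9 and 135 in PDGF-BB libraries 1 to 3. It stood at 214, 73.5, 159 and 48.5 TPM in Myocd-LSD1 libraries 1 to 4 and at 254, 246, 183 and 544 in Myocd-LSD1NF libraries 1 to 4. Myocd-LSD1 libraries 2 and 4 were the lowest of the series for Ccl7 and the highest for Ccl2. The difference of Myocd-LSD1 from Myocd-LSD1NF was -1.41 ± 0.42 (SE) on the log2 scale (adjusted p = 0.0190), and it lost its call without Myocd-LSD1 library 2 (adjusted p = 0.0590) or 4 (0.0598), without Myocd-LSD1NF library 4 (0.0536) and in a fit of those 2 groups alone (0.0590). Every PDGF-BB library lay below every Myocd-LSD1NF library, a difference of -1.19 ± 0.45 that missed the threshold (adjusted p = 0.0583) and passed without Myocd-LSD1 library 1 (0.0377) or 4 (0.0332) or libraries 2 and 4 of that line together (0.0166), under median-of-ratios scaling (0.0268) and in a fit of those 2 groups alone (0.0337). Against control Ccl7 differed by -0.71 ± 0.42 in Myocd-LSD1 (adjusted p = 0.226) and by 0.70 ± 0.42 in Myocd-LSD1NF (adjusted p = 0.460). The sources used here do not say how reads shared by related genes were assigned.

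Il1rl1 encodes ST2, the receptor for interleukin-33, and its shorter product is a secreted decoy. It was higher with PDGF-BB and close to absent in the Myocd-LSD1 line. Control libraries 1 to 4 had 2.96, 1.17, 3.72 and 3.91 TPM (2.94 ± 1.25, SD, n = 4), and PDGF-BB libraries 1 to 3 had 14.5, 19.1 and 26.9 TPM (20.2 ± 6.27, SD, n = 3). Myocd-LSD1 libraries 1 to 4 were listed at 0.10, 0, 0.36 and 0.03 TPM (0.123 ± 0.164, SD, n = 4), and Myocd-LSD1NF libraries 1 to 4 had 6.15, 9.21, 5.57 and 1.43 TPM (5.59 ± 3.20, SD, n = 4). The PDGF-BB and Myocd-LSD1 groups each stood clear of all other groups, and the Myocd-LSD1NF group overlapped control only through library 4. Against control, Il1rl1 rose by 2.45 ± 0.40 (SE) log2 units with PDGF-BB (adjusted p = 0.000554) and fell by 1.75 ± 0.37 in Myocd-LSD1 (adjusted p = 0.00194). The difference of Myocd-LSD1 from PDGF-BB was -4.21 ± 0.40 (adjusted p = 3.34e-06), that from Myocd-LSD1NF -2.39 ± 0.37 (adjusted p = 0.000197), and PDGF-BB was 1.82 ± 0.40 above Myocd-LSD1NF (adjusted p = 0.00420). The 5 differences passed the test whichever library was left out. Myocd-LSD1NF lay 0.64 ± 0.37 above control, which did not pass (adjusted p = 0.442).

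**Figure D2:**
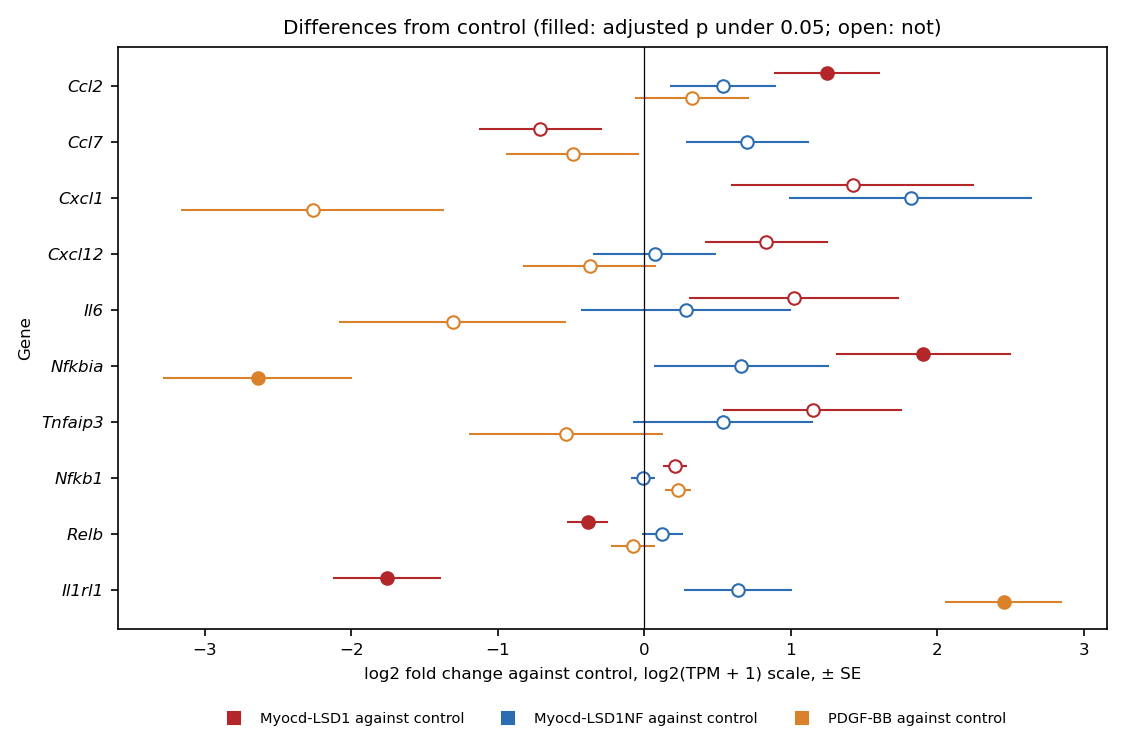
Log2 fold change of each gene against control in Myocd-LSD1, Myocd-LSD1NF and PDGF-BB libraries, with bars of 1 SE and filled points for an adjusted p under 0.05. Nfkbia and Il1rl1 have filled points on opposite sides of 0 for Myocd-LSD1 and PDGF-BB, and no point of Myocd-LSD1NF is filled.

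Over the set, 4 of 10 members were called in Myocd-LSD1 against control, Ccl2 and Nfkbia higher and Relb and Il1rl1 lower, where 32.2% of all genes tested were called, 16.9% higher and 15.4% lower. The median log2 fold change was 0.93 over the members and 0.03 over all genes tested. Groups did not overlap for 1 of 10 members, beside 30.5% of all genes. With PDGF-BB against control 2 of 10 members were called, Il1rl1 higher and Nfkbia lower, beside 27.7% of all genes (19.2% higher and 8.5% lower), and the medians were -0.43 and 0.12. For 3 members, Nfkbia, Nfkb1 and Il1rl1, these groups did not overlap, beside 41.4% of all genes. In Myocd-LSD1NF against control limma called 0 of 10 members at the adjusted threshold, beside 2.21% of all genes (0.475% higher and 1.74% lower), and 1 member, Cxcl1, had an unadjusted p under 0.05 (0.0448). The median log2 fold change there was 0.54 over the members and -0.05 over all genes. These groups overlapped for all 10 members, beside 9.95% of all genes that did not overlap.

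Between the 2 lines 3 of 10 members were called, Ccl7, Relb and Il1rl1, all lower in Myocd-LSD1, beside 31.8% of all genes (19.1% higher and 12.7% lower). The lines did not overlap for Nfkb1, Relb and Il1rl1, 3 of 10 members beside 27.0% of all genes. Myocd-LSD1 against PDGF-BB gave 4 of 10, with Cxcl1, Il6 and Nfkbia higher and Il1rl1 lower, beside 31.1% of all genes (10.6% higher and 20.5% lower). Those groups did not overlap for Cxcl1, Nfkbia, Relb and Il1rl1, 4 of 10 members beside 36.9% of all genes. PDGF-BB against Myocd-LSD1NF gave 3 of 10, with Il1rl1 higher and Cxcl1 and Nfkbia lower, beside 31.4% of all genes (23.9% higher and 7.59% lower). Ccl7, Cxcl1, Nfkbia, Nfkb1 and Il1rl1, 5 of 10 members, did not overlap there, beside 40.4% of all genes. The shares of members called lie near those over all genes, so these counts do not set the members apart from other genes. The count in Myocd-LSD1 against control was 2 without control library 3, 1 without Myocd-LSD1 library 2 and 2 without Myocd-LSD1 library 4, and the count in PDGF-BB against Myocd-LSD1NF was 5 without Myocd-LSD1 library 1. Over all genes, leaving out PDGF-BB library 3 gave 17.5% in PDGF-BB against control and 17.8% in PDGF-BB against Myocd-LSD1NF. The 2.21% in Myocd-LSD1NF against control became 0.893% without control library 1, 0.918% without control library 2, 1.40% without control library 3 and 1.05% without Myocd-LSD1NF library 2. When the 4 groups were ordered by mean level, neighbours in the order differed beyond their spread only for Nfkbia, between control and PDGF-BB, and for Il1rl1, between PDGF-BB and Myocd-LSD1NF and between control and Myocd-LSD1. Myocd-LSD1 libraries 2 and 4 were the 2 highest of their group for Ccl2, Cxcl1, Il6, Nfkbia and Tnfaip3 and the 2 lowest for Ccl7. Without both of them Il1rl1 was the 1 member still called in Myocd-LSD1 against control, with adjusted p-values of 0.196 for Ccl2, 0.250 for Nfkbia and 0.121 for Relb. That omission also ended the calls of Ccl7 against Myocd-LSD1NF (adjusted p = 0.260) and of Cxcl1 (0.0731) and Il6 (0.331) against PDGF-BB.

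Libraries of the same group differed more for 8 of the 10 members than for most other genes. The pooled SD within groups was 1.35 log2 units for Cxcl1, 1.16 for Il6, 0.996 for Tnfaip3 and 0.97 for Nfkbia, larger than that of 99.8%, 99.5%, 99.1% and 99.0% of the genes tested. Ccl7 and Cxcl12 each exceeded 96.6% of genes, Ccl2 94.6% and Il1rl1 94.5%. At the other end Nfkb1 had an SD of 0.087, and 1.3% of genes had a smaller one, while Relb had 0.18 and 34.2%. Within control the highest library stood 13.5 times above the lowest for Cxcl1, 10.4 times for Il6, 7.26 times for Nfkbia and 5.62 times for Tnfaip3. The libraries took the same order for these 4 genes, with control library 4 highest, then 3, then 1, and control library 2 lowest. Il1rl1 took this order in control too. In Myocd-LSD1 libraries the order from high to low was 2, 4, 3 and 1 for Ccl2, Cxcl1, Il6 and Nfkbia, and 4, 2, 3 and 1 for Tnfaip3. Among Myocd-LSD1NF libraries, library 4 was highest and library 1 lowest for Cxcl1, Il6, Nfkbia and Tnfaip3. The PDGF-BB libraries took the order 3, 1 and 2 for Nfkbia and Tnfaip3, 3, 2 and 1 for Il6 and 1, 3 and 2 for Cxcl1, so no order was shared by these 4 genes there. What differed between libraries of 1 group is not given in the labels.

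**Figure D3:**
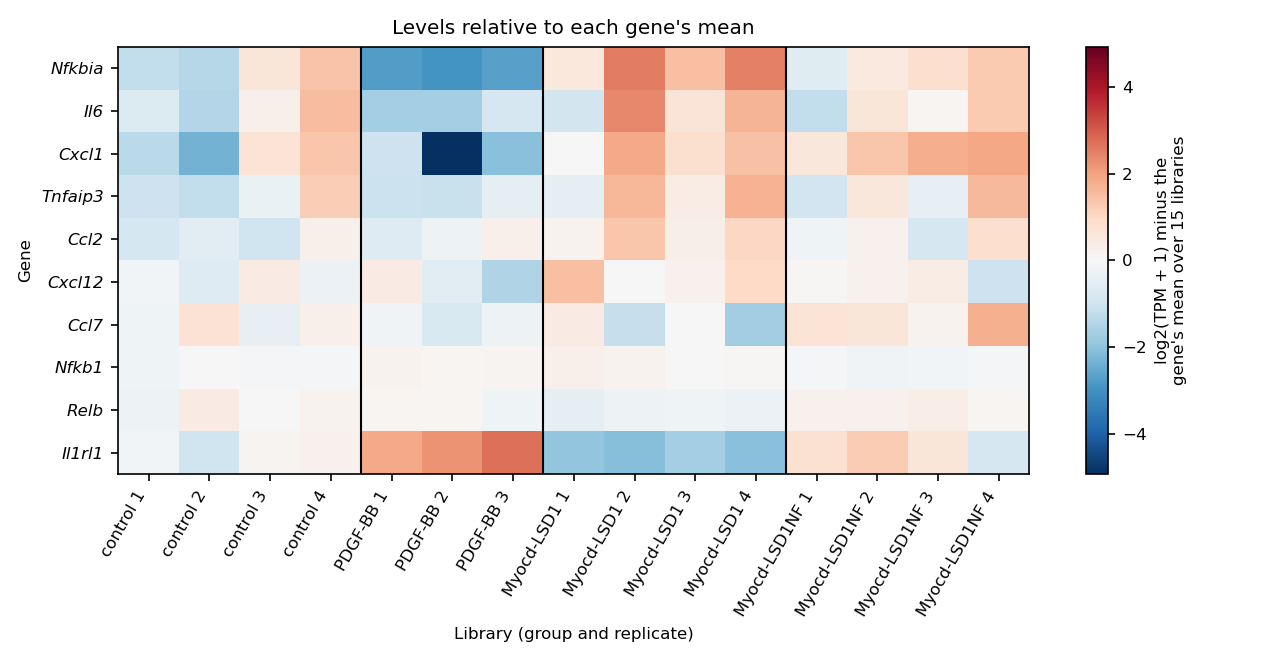
Log2(TPM + 1) of each gene minus its mean over the 15 libraries, with red above and blue below the mean, libraries in columns by group and replicate, and black lines between groups. Nfkbia, Il6, Cxcl1 and Tnfaip3 share the red columns of control library 4, Myocd-LSD1 libraries 2 and 4 and Myocd-LSD1NF library 4, Nfkb1 and Relb are nearly uniform, and Il1rl1 is red with PDGF-BB and blue in Myocd-LSD1.

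The genes with the most similar profiles over the 15 libraries were listed by Pearson's r as a description, since libraries of 1 group share their condition. For Nfkbia they were Zc3h12a (r = 0.977), which encodes the RNase Regnase-1, and the clock gene Per1 (r = 0.966). For Tnfaip3 they were Azin1 (r = 0.974), an antizyme inhibitor, and the sphingosine kinase Sphk1 (r = 0.965), and for Il6 they were Gprc5a (r = 0.948) and Bhlhe40 (r = 0.931). For Cxcl1 they were Hes1 (r = 0.925) and Noct (r = 0.917), for Ccl2 the cationic amino acid transporter Slc7a1 (r = 0.924) and Cdyl (r = 0.911), and for Ccl7 Atxn7l1 (r = 0.908) and Bicc1 (r = 0.901). Il1rl1 was closest to the potassium channel gene Kcnq5 (r = 0.954) and Fam131b (r = 0.937), Nfkb1 to Mocos (r = 0.913) and Rarg (r = 0.906), Cxcl12 to Maoa (r = 0.876) and Washc1 (r = 0.794), and Relb to Jph2 (r = 0.863) and Fam8a1 (r = 0.856).

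Around the members, 149 genes of the pathway were sorted into 8 lists by role, of which 146 were matched and 86 passed the filter. In Myocd-LSD1 against control 22 of the 86 were higher and 13 lower, with a median log2 fold change of 0.15 beside 0.03 over all genes, and in Myocd-LSD1NF against control 0 were higher and 1, Il1rl2, was lower (with median-of-ratios scaling 4 and 1, and with quantile normalization 2 and 0). With PDGF-BB against control 20 were higher and 14 lower, but median-of-ratios scaling, which moves the median of all genes in that comparison by -0.13, gave 15 higher and 17 lower. As a share of those tested, 40.7%, 1.16% and 39.5% were called in Myocd-LSD1, Myocd-LSD1NF and PDGF-BB against control, beside 32.2%, 2.21% and 27.7% of all genes. The counts for the single lists stand beside these same shares, and the lists are small. The 35 genes called in Myocd-LSD1 against control became 23 without Myocd-LSD1 libraries 2 and 4 together, and the 34 called with PDGF-BB became 22 without control library 3, 21 without PDGF-BB library 2 and 22 without PDGF-BB library 3.

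The ligand of ST2 moved the other way from its receptor in the Myocd-LSD1 line. Il33, which encodes interleukin-33, was at 6.43, 2.48, 4.35 and 8.41 TPM in control libraries 1 to 4 and at 157, 51.6, 84.2 and 163 TPM in Myocd-LSD1 libraries 1 to 4. PDGF-BB libraries 1 to 3 had 6.64, 8.10 and 35.3 TPM, and Myocd-LSD1NF libraries 1 to 4 had 1.5, 14.8, 2.93 and 4.12 TPM. Every Myocd-LSD1 library lay above every other library. Il33 was 4.11 ± 0.58 (SE) log2 units above control in Myocd-LSD1 (adjusted p = 7.70e-05), 4.29 ± 0.58 above Myocd-LSD1NF (adjusted p = 6.63e-05) and 2.93 ± 0.63 above PDGF-BB (adjusted p = 0.00269). Il1rap, the co-receptor of ST2, which was chosen after its values were seen, averaged 4.72 ± 0.606 TPM in control, 9.66 ± 4.38 in PDGF-BB, 5.34 ± 0.752 in Myocd-LSD1 and 5.60 ± 0.714 in Myocd-LSD1NF libraries (SD, n = 4, 3, 4 and 4).

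Several genes of the interleukin-1 receptor family lie beside Il1rl1 on rat chromosome 9 in the RefSeq gene order, among them Il1r1, Il1rl2, Il18r1 and Il18rap. Il1rn, the natural antagonist of interleukin-1, averaged 4.53 ± 1.70 TPM in control, 42.7 ± 9.45 with PDGF-BB, 20.8 ± 8.92 in Myocd-LSD1 and 13.4 ± 9.35 in Myocd-LSD1NF libraries (SD, n = 4, 3, 4 and 4). It rose by 3.01 ± 0.46 log2 units with PDGF-BB (adjusted p = 0.000387) and by 1.93 ± 0.43 in Myocd-LSD1 (adjusted p = 0.00290). Myocd-LSD1NF lay 1.17 ± 0.43 above control (adjusted p = 0.191), and the difference of 0.76 ± 0.43 between the lines did not pass (adjusted p = 0.194). Il1rl2, the interleukin-36 receptor gene next to Il1rl1, averaged 9.27 ± 4.01 TPM in control, 9.37 ± 2.04 with PDGF-BB, 1.93 ± 1.98 in Myocd-LSD1 and 2.0 ± 1.02 in Myocd-LSD1NF libraries (SD, n = 4, 3, 4 and 4). It fell by 1.91 ± 0.42 in Myocd-LSD1 (adjusted p = 0.00286) and by 1.74 ± 0.42 in Myocd-LSD1NF (adjusted p = 0.0467), and leaving out any of the control libraries 1 to 3, the PDGF-BB libraries, Myocd-LSD1 library 1 or 2, or any Myocd-LSD1NF library took the latter past the threshold, to at most 0.155. It was also lost with a pseudocount of 0.1 (adjusted p = 0.0893), no filter on low values (0.0741), a filter at a mean of 5 TPM (0.0746), quantile normalization (0.0553) or those 2 groups alone (0.0753). The call in Myocd-LSD1 was lost without libraries 2 and 4 together (adjusted p = 0.0608). Among ligands and receptors of the pathway, the interleukin-1 genes Il1a and Il1b were listed at 0 in every library, and Tnf reached at most 0.17 TPM. Tlr2, a receptor for bacterial lipoproteins, averaged 2.69 ± 0.674 TPM in control, 17.7 ± 0.778 with PDGF-BB and 0.927 ± 1.03 in Myocd-LSD1 libraries. It rose by 2.36 ± 0.32 with PDGF-BB (adjusted p = 0.000144) and fell by 1.09 ± 0.30 in Myocd-LSD1 (adjusted p = 0.0109), although the latter call was lost without Myocd-LSD1 libraries 2 and 4 together (adjusted p = 0.142).

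Of the other feedback genes 17 of 18 passed the filter. In Myocd-LSD1 against control 6 were higher and 0 lower, and with PDGF-BB 2 were higher and 6 lower, with medians of 0.51 and 0.03. Those are 35.3% and 47.1% of the genes tested, beside 32.2% and 27.7% of all genes. Zfp36, which encodes tristetraprolin, a protein that promotes the decay of cytokine mRNAs, was at 728, 944, 959 and 1113 TPM in control libraries 1 to 4 and at 377, 47.9 and 177 TPM in PDGF-BB libraries 1 to 3. Ier3, an early response gene, was at 359, 357, 698 and 614 TPM in control and at 191, 47.0 and 119 TPM in PDGF-BB libraries in the same order. Neither gene's PDGF-BB libraries overlapped control, and Zfp36 fell by 2.64 ± 0.47 (SE) on the log2 scale (adjusted p = 0.00109) and Ier3 fell by 2.23 ± 0.38 (adjusted p = 0.000821). Zc3h12a, whose product cleaves cytokine mRNAs such as that of Il6, was 2.79 ± 0.51 higher in Myocd-LSD1 than with PDGF-BB (adjusted p = 0.000900). Socs3, the feedback inhibitor of IL-6 signalling, was at 28.9, 27.8, 34.4 and 36.0 TPM in control and at 84.1, 139, 55.3 and 155 TPM in Myocd-LSD1 libraries 1 to 4, a rise of 1.64 ± 0.29 (adjusted p = 0.000448). Traf1, a signalling adaptor, rose with PDGF-BB by 1.10 ± 0.17 (adjusted p = 0.000411) and in Myocd-LSD1 by 0.65 ± 0.16 (adjusted p = 0.00542), and the latter call was lost without Myocd-LSD1 libraries 2 and 4 together (adjusted p = 0.0532).

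Most other chemokines were at or near 0. Of 31 matched, 9 were listed at 0 in every library, 23 stayed below 1 TPM in all of them and 6 passed the filter. Cxcl16, which also acts as a scavenger receptor, was at 23.2, 30.5, 23.4 and 19.5 TPM in control and 66.9, 62.5, 72.5 and 51.1 TPM in Myocd-LSD1 libraries 1 to 4, a rise of 1.36 ± 0.23 (adjusted p = 0.000344). Cxcl10, an interferon-induced ligand of CXCR3, was at 12.5, 5.44, 1.5 and 2.18 TPM in control and 13.4, 54.9 and 74.0 TPM in PDGF-BB libraries, and at 0.38 to 1.02 TPM in Myocd-LSD1 libraries. It rose by 2.93 ± 0.65 with PDGF-BB (adjusted p = 0.00443). Cxcl13, the B cell chemokine, averaged 111 ± 77.0 TPM in Myocd-LSD1 and 12.2 ± 10.3 in Myocd-LSD1NF libraries (SD, n = 4), a log2 difference of 3.35 ± 0.95 (adjusted p = 0.0147) that lost its call without Myocd-LSD1 libraries 2 and 4 together (adjusted p = 0.150). Against control, Cxcl13 was not called in Myocd-LSD1. Of 17 matched chemokine receptors 15 stayed below 1 TPM in every library, and Ccr2, a receptor of CCL2 and CCL7, Cxcr2, the main receptor of CXCL1, and Cxcr1 were listed at 0 in all of them. Cxcr4 reached at most 0.51 TPM. The 1 receptor tested was Ackr3, the scavenging receptor of CXCL12, at 173 ± 33.5 TPM in control, 114 ± 35.5 with PDGF-BB, 194 ± 118 in Myocd-LSD1 and 172 ± 40.2 in Myocd-LSD1NF libraries (SD, n = 4, 3, 4 and 4), which passed the test in no comparison and was chosen after its values were seen.

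In the IL-6 family, the cytokine Lif was at 50.2, 20.6, 157 and 246 TPM in control libraries 1 to 4, in the order that Il6 took, and at 10.2, 3.53 and 16.1 TPM in PDGF-BB libraries 1 to 3. All PDGF-BB libraries lay below control, and Lif fell by 3.09 ± 0.79 (SE) on the log2 scale (adjusted p = 0.00989), a call that was lost without PDGF-BB library 2 (adjusted p = 0.0572). Its receptor Lifr averaged 3.40 ± 1.14 TPM in control and 26.5 ± 12.6 in Myocd-LSD1 libraries (SD, n = 4) and rose by 2.57 ± 0.40 (adjusted p = 0.000185). Of the 13 genes tested in this list 4 were higher and 3 lower in Myocd-LSD1 against control, and 4 higher and 2 lower with PDGF-BB. Among 15 tested targets of NF-kappaB outside the members, 3 were higher and 2 lower in Myocd-LSD1 against control, and 2 were higher and 4 lower with PDGF-BB. Lcn2, an iron-trapping acute phase protein, averaged 14.4 ± 2.83 TPM in control and 97.7 ± 43.0 in Myocd-LSD1 libraries (SD, n = 4) and rose by 2.55 ± 0.32 (adjusted p = 2.33e-05). Selp, the adhesion molecule P-selectin, was at most 0.09 TPM in control and at 6.66, 2.75, 7.95 and 0.85 TPM in Myocd-LSD1 libraries 1 to 4, a rise of 2.16 ± 0.35 (adjusted p = 0.000252).

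Among receptors and ligands 11 of 16 genes were tested, with 3 higher and 2 lower in Myocd-LSD1 against control and 6 higher and 1 lower with PDGF-BB. All 20 adapters and kinases were tested, with 5 higher and 3 lower in Myocd-LSD1 and 3 higher and 1 lower with PDGF-BB. Irak3, a kinase-dead brake on signalling by Toll-like and interleukin-1 receptors, averaged 9.02 ± 0.575 TPM in control, 15.1 ± 2.06 with PDGF-BB and 27.8 ± 2.73 in Myocd-LSD1 libraries (SD, n = 4, 3 and 4). It rose by 1.52 ± 0.14 in Myocd-LSD1 (adjusted p = 1.45e-06) and by 0.68 ± 0.15 with PDGF-BB (adjusted p = 0.00451). Irak2, a gene of the same family, fell by 0.94 ± 0.12 in Myocd-LSD1 (adjusted p = 2.50e-05) and by 0.98 ± 0.13 with PDGF-BB (adjusted p = 0.000101). Of the 3 other NF-kappaB subunit genes, Rela, Rel and Nfkb2, the lowest adjusted p against control was 0.0627, for Nfkb2 in Myocd-LSD1NF, and Rela, which encodes the transactivating subunit p65, averaged 91.2 ± 6.18 TPM in control, 85.7 ± 8.70 in PDGF-BB, 83.5 ± 5.19 in Myocd-LSD1 and 106 ± 13.6 in Myocd-LSD1NF libraries (SD, n = 4, 3, 4 and 4). Against Myocd-LSD1NF, Rela was lower by a log2 difference of -0.34 ± 0.10 in Myocd-LSD1 (adjusted p = 0.0183) and of -0.31 ± 0.11 with PDGF-BB (adjusted p = 0.0433). The first call was lost without Myocd-LSD1 library 2 (adjusted p = 0.0534), Myocd-LSD1NF library 1 (0.0569) or 2 (0.0618), or Myocd-LSD1 libraries 2 and 4 together (0.134), and the second without any 1 of control libraries 1 to 3, PDGF-BB libraries 2 and 3 and Myocd-LSD1NF libraries 1 to 3 (0.0507 to 0.194). Neither was called when each pair of groups was fitted by itself (0.0508 and 0.102). Nfkb2, whose product p52 pairs with RelB, was at 29.3, 32.8 and 31.6 TPM in PDGF-BB libraries 1 to 3 and at 46.7, 45.0, 38.7 and 43.9 TPM in Myocd-LSD1NF libraries 1 to 4. These groups did not overlap, and the difference of -0.47 ± 0.11 (adjusted p = 0.00651) passed whichever library was left out.

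**Figure D4:**
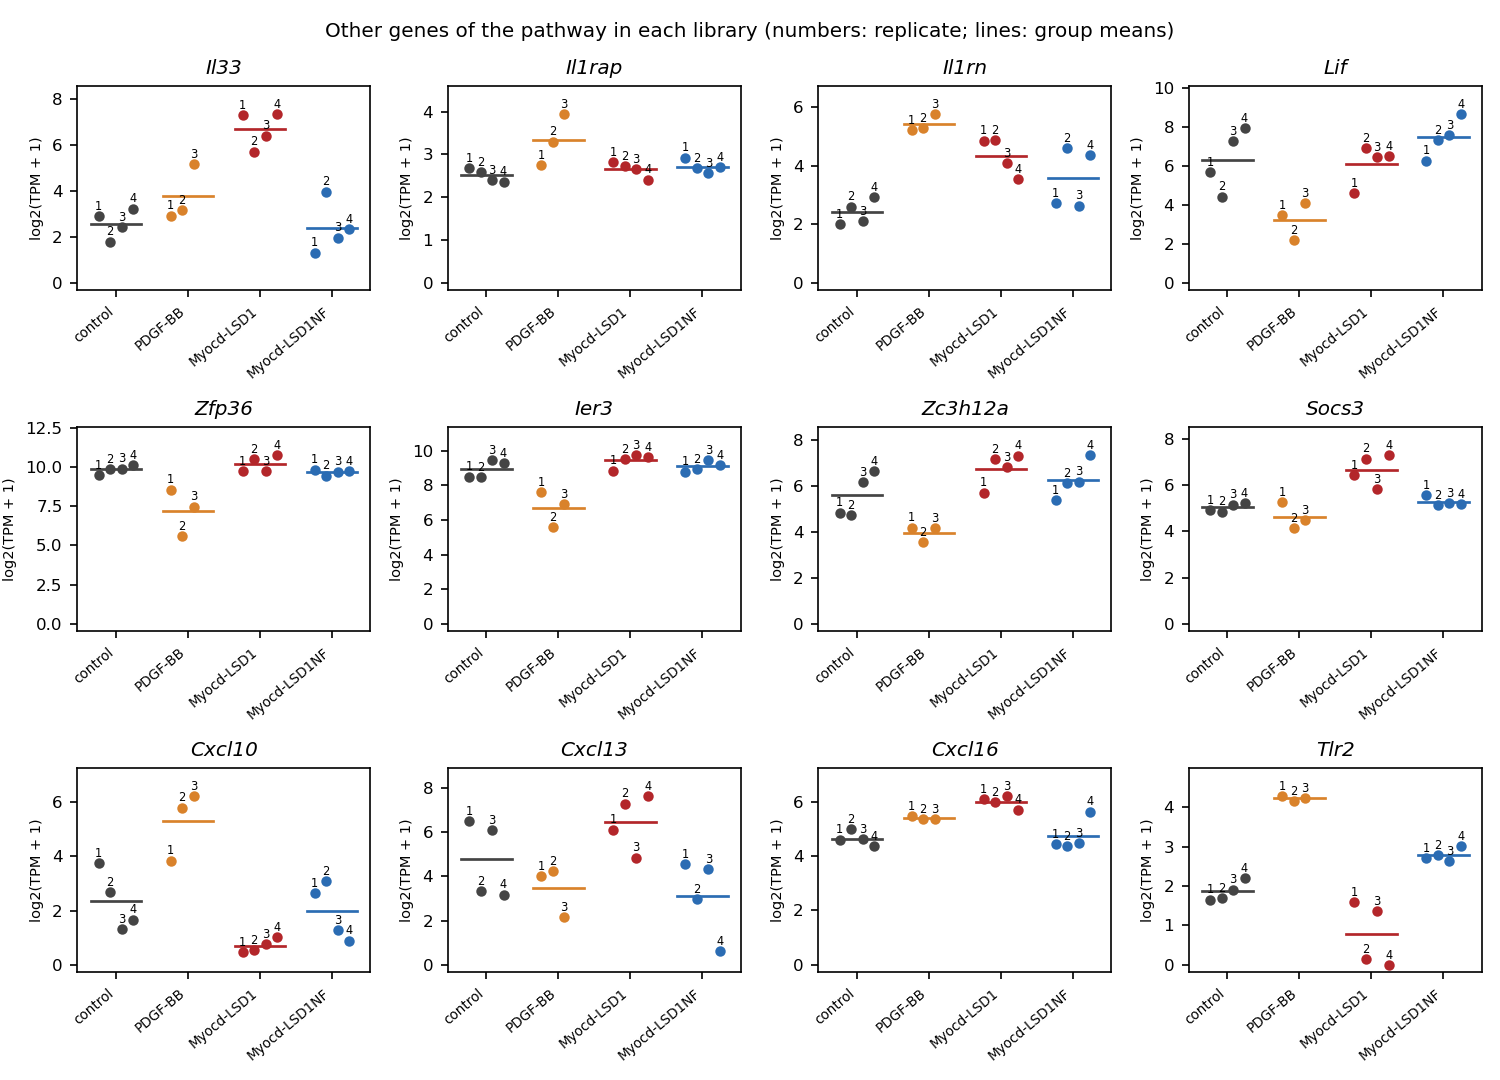
Level of 12 other genes of the pathway in the 15 libraries, as log2(TPM + 1) on a vertical axis that starts at about 0, with points numbered by replicate and a line at each group's mean. Il33 is highest in all 4 Myocd-LSD1 libraries (51.6 to 163 TPM), and Zfp36, Ier3 and Lif are lowest in the 3 PDGF-BB libraries.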

How the data were processed

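Per the labels, RNA of cultured rat SMC was purified with RNeasy columns, freed of DNA with DNase I and made into polyA libraries (TruSeq Stranded mRNA). The deposited table holds the authors' TPM for 32623 gene entries, and each library's TPM add up to 1000000. For the aligner, counter, genome build and annotation, no name is given in the sources used here. TPM keep no depth, so no counting interval was computed, and 4 columns of group means were not used. Genes with at least 1 TPM in at least 3 of 15 libraries were kept (12207). A pseudocount of 1 was added before log2, and limma 3.58.1 in R 4.3.3 (eBayes with trend) was fitted with 1 mean per group to all libraries; two-sided p-values were adjusted by Benjamini-Hochberg over all genes tested in each of 6 comparisons, and 0.05 was the threshold. The procedure was tested on simulated data.

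The members and lists were chosen with earlier results of these data known. Genes named outside the members are called genes of the role lists, at most 2 per list, direction and comparison, with 2 TPM or more on average in the group where they were higher, and not all of them are reported. The values of 1 gene of these lists are not reported here, and it was left out of the search for libraries far from their group. The genes closest in profile are the 2 with the highest Pearson's r. Alternatives were pseudocounts of 0.1 and 5, no filter, a mean of 5 TPM as the filter, quantile normalization, median-of-ratios scaling, a replicate block, the compared groups alone, Myocd-LSD1 libraries 2 and 4 left out together, and each library left out in turn. Promoters and gene order come from RefSeq GRCr8, matched by symbol. Summaries used pandas 2.3.3 and numpy 2.4.6 under Python 3.11.15, with matplotlib 3.10.9 for plots.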

Additional observations from a re-analysis of the deposited data

Results flagged for a closer look

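None of the 10 members had a library that stood far from the others of its group of 4. Among the genes of the role lists, 8 of the 165 groups of 4 libraries tested, members included, held 1 library far from the other 3 by Dixon's ratio, and chance gives about 1 in 20. High libraries were control library 2 for Ccl11 (17.3 TPM, the others 0.25 to 1.59), control library 4 for Tnfrsf1b (5.68 TPM, the others 2.87 to 3.26) and Myocd-LSD1 library 2 for Ccl11 (0.17 TPM, the others listed at 0). In Myocd-LSD1NF, library 4 was high for Cxcl16 (48.5 TPM, the others 19.6 to 21.01) and Traf1 (1.85 TPM, the others 1.16 to 1.23), and library 1 was high for Socs3 (46.7 TPM, the others 34.3 to 36.2). Low libraries were Myocd-LSD1NF library 3 for Ikbke (6.78 TPM, the others 8.85 to 9.13) and control library 3 for Irak2 (8.44 TPM, the others 9.23 to 9.36).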

How the results depend on the processing

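The count of members called stood at 0 in Myocd-LSD1NF against control under every alternative run. In Myocd-LSD1 against control it went from 4 to 2 when the compared groups were fitted alone and to 1 without Myocd-LSD1 libraries 2 and 4 together, and single omissions gave 1 to 4. In Myocd-LSD1 against PDGF-BB it went from 4 to 2 without those 2 libraries, and single omissions gave 3 to 6. Single omissions gave 2 to 3 in PDGF-BB against control, 2 to 4 between the lines and 3 to 5 in PDGF-BB against Myocd-LSD1NF. Libraries with the same number were not taken as pairs, since the correlations of their deviations from group means ran from -0.225 to 0.576 and at least 1 was negative for every pair of groups, although control and Myocd-LSD1NF libraries 1, 3 and 4 gave 0.195, 0.576 and 0.301; 16 of 42 library and group cases correlated best with their own number. With the replicate number as a block the count of members called went from 3 to 5 between the lines (Ccl2 and Nfkbia added), from 4 to 5 in Myocd-LSD1 against control (Tnfaip3, adjusted p = 0.0242) and from 4 to 6 in Myocd-LSD1 against PDGF-BB (Cxcl12 and Tnfaip3). No call of a member was lost under the block, and 2 of the role lists were, Cxcl10 in Myocd-LSD1 against control (adjusted p = 0.0552) and Cx3cl1 with PDGF-BB (0.0584). The causes of these changes were not tested.

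The directions that turned belong to differences that did not pass the test. Without Myocd-LSD1 libraries 2 and 4 the log2 difference became 0.096 for Ccl7 and -0.054 for Il6 against control, -0.34 for Il6 and -0.26 for Tnfaip3 against Myocd-LSD1NF, and 0.58 for Ccl7 against PDGF-BB. Median-of-ratios scaling and quantile normalization turned Nfkb1 to 0.043 and 0.015 in Myocd-LSD1NF against control and to 0.096 and 0.048 in Myocd-LSD1 against PDGF-BB. Single omissions gave -0.088 to 0.38 for Cxcl12, -0.17 to 0.83 for Il6 and -0.052 to 0.030 for Nfkb1 in Myocd-LSD1NF against control, -0.85 to 0.090 for Cxcl12 and -0.20 to 0.024 for Relb in PDGF-BB against control, -0.56 to 0.15 for Ccl7 and -0.062 to 0.028 for Nfkb1 in Myocd-LSD1 against PDGF-BB, and -0.49 to 0.062 for Ccl2 and -0.93 to 0.017 for Cxcl12 in PDGF-BB against Myocd-LSD1NF. A filter at a mean of 5 TPM gave 1.11% of all genes in Myocd-LSD1NF against control and the compared groups alone 1.44%, in place of 2.21%, and Myocd-LSD1 against PDGF-BB gave 18.4% without Myocd-LSD1 libraries 2 and 4, in place of 31.1%. Depth is unknown, so levels below 1 TPM cannot be weighed by their counts.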
